A study of Mus musculus with 5 samples.

Results

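Input-only summits between genes are positions at which the Input library of mouse Th9 cells held a peak summit, no summit of the other 4 libraries lay within 500 bp, and no gene was annotated. They were chosen by the measured positions of the deposited summits: a row of the Input list on one of the 19 autosomes or chromosome X whose summit was more than 500 bp from every summit of the PU.1, BATF, goat Ig and rabbit Ig lists, and outside every gene of GENCODE M21 (mm10, GRCm38). The rule found 14428 members among the 25194 summits of the Input list, 57.3% of that list and 37.3% of the 38651 summits of the whole series. Of the 24853 Input summits on these chromosomes, 21675 had no summit of another library within 500 bp, and 7247 of those lay inside genes. The 5 members nearest to the distance limit lay 504, 506, 506, 508 and 509 bp from another library's summit, with scores of 7.42, 1.35, 2.99, 2.11 and 2.13. The 5 Input summits between genes that fell just inside it lay at 496, 495, 495, 489 and 484 bp, with scores of 4.83, 2.21, 5.08, 5.40 and 4.77. Only 161 members had another library's summit within 1000 bp, and the median distance was 98.3 kb.

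The 5 libraries were PU.1 ChIP, BATF ChIP, goat Ig and rabbit Ig controls, and Input, 1 library each, from CD4 T cells of wild-type C57/Bl6j mice 7 weeks of age. Naive CD4 T cells of spleen and nodes were stimulated through CD3 and CD28 and polarised to Th9, the helper subset that secretes IL-9, with IL-4 at 20 ng/ml, TGF-β at 2 ng/ml and an antibody that blocks IFNγ, for a few hours according to the labels. All 5 libraries shared this genotype and treatment, and the labels name no difference between them other than the antibody. With 1 library per antibody there was no replicate and no test: the main shares carry a Clopper-Pearson (exact) 95% interval for counting error alone, and the read depth behind each summit is unknown because the lists hold positions and scores and no read counts. No marker of the cell type can be read from summit positions, so the labelled cell type could not be checked here. Nothing says how many animals gave the chromatin.

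Input is sheared chromatin that was sequenced without immunoprecipitation, so that it shows which parts of the genome give many fragments or many assigned reads with no antibody. L1 elements are the most abundant retrotransposons that still move in the mouse genome, and a complete copy holds a promoter, a first reading frame (ORF1) for an RNA-binding protein, a second (ORF2) for an endonuclease and reverse transcriptase, and a 3′ end. Because copying starts at the 3′ end and often stops early, most copies are cut off at the 5′ side. Reads from such repeats are hard to assign to 1 copy, and summits called on them mark families of sequence as well as single places.

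Of the 14428 members, 12726 (88.2%, interval 87.7 to 88.7) resembled an L1 element, which made L1 by far the main content of the set. To measure this, every reading frame of at least 3600 bases that encodes the catalytic motif of the L1 reverse transcriptase was found in the reference (3342 frames, 3076 of them of 3846 bases), and the copy on chromosome 5 (minus strand, ORF2 at chr5:102191478-102195323, 29 differences from the consensus of those 3076 frames) served as a map. A window of 200 bases around a summit was called L1-like where at least 100 of its bases aligned to that copy. Positions on the map are counted from the first base of ORF2 as position 1, so ORF1, of 371 codons, runs from -1155 to -40. The same alignment of each of the 6738329 tiles of 200 bases that cover the sequence between genes found 15.9% of them L1-like.

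The stretch of the element that held most members per tile, and the one that held fewest within its reading frames, are shown first, since the distribution of members along L1 is the main pattern of the set. They are read 5′ to 3′ on the strand of the element, from the reference genome, with the bin of 50 bases in capitals that was richest of all or emptiest within the frames.
Map copy, positions -975 to -776, in ORF1 (chr5:102196100-102196299, minus strand): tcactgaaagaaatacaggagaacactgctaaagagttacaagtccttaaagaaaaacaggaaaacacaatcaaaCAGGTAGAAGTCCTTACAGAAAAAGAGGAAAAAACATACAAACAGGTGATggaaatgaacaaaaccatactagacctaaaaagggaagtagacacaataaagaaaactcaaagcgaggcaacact
Map copy, positions 3375 to 3574, in ORF2 (chr5:102191750-102191949, minus strand): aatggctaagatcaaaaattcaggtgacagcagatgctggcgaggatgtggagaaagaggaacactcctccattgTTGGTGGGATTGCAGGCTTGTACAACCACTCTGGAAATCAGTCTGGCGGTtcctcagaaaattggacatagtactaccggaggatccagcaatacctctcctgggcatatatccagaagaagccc
The capitals of the first line cover positions -900 to -851, where 504 members fell on 5152 L1-like tiles, or 97.8 members per 1000 tiles. The capitals of the second cover positions 3450 to 3499, where 6 members fell on 13531 tiles, or 0.443 per 1000. In the map copy 36% of the bases of the first and 52% of those of the second were G or C.

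Members from rich parts of the element follow, so that their divergence from the map copy can be seen. The first 2 are the highest-scored members of the richest bin that aligned without a gap at an identity of at least 98% and of 88 to 92%, and the others the highest-scored ones without a gap at the start and the end of ORF2. Capitals mark bases that differ from the map copy at the same position.
Member at positions -992 to -793 (chr3:47283824-47284023, plus strand): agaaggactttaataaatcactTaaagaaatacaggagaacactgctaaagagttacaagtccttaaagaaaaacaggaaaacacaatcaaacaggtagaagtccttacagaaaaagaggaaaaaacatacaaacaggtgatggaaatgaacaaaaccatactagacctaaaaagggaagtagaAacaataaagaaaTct
Member at positions -954 to -755 (chr12:22852663-22852862, minus strand): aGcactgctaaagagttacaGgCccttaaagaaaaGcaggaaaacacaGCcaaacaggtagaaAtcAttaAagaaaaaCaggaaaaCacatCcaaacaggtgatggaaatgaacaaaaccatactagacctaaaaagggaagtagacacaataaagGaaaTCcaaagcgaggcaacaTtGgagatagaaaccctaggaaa
Member at positions -113 to 86 (chrX:62842599-62842798, plus strand): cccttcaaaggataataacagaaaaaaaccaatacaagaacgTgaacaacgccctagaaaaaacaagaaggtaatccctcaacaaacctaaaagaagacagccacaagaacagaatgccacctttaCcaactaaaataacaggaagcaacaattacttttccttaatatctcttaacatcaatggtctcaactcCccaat
Member at positions 3725 to 3924 (chr5:116605834-116606033, minus strand): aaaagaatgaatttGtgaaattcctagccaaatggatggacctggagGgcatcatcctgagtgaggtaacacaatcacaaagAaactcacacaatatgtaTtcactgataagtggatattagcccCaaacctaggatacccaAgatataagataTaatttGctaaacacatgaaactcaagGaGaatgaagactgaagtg
They differed from the map copy at 3, 17, 3 and 10 of 200 bases, and had scores of 18.1, 9.54, 24.0 and 14.6. The most frequent stretch of 75 bases within each window occurred 3403, 1180, 1946 and 3554 times in the genome, yet 3 of the 4 windows also held a stretch of 75 bases found nowhere else. The window on chromosome 12 held none.

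The L1-like share was high in Input-only summits, inside genes as well as between them, and lower in the other sets measured. It was 78.8% (interval 77.8 to 79.7) for the 7247 Input-only summits inside genes, where the share of tiles was not measured. For the Input summits near another library's summit, counted inside and between genes alike, it was 43.0% (41.3 to 44.7). Among summits between genes that had no Input summit within 500 bp, it was 33.3% (31.5 to 35.0) of 2886 for PU.1, the ETS factor of myeloid and Th9 cells, and 18.8% (16.4 to 21.3) of 1044 for BATF, the bZIP factor that pairs with JUN and IRF proteins. Of the PU.1 and BATF shares, that of BATF was the nearer to the 15.9% of all tiles, and the shares of the goat Ig (5 of 28 summits) and rabbit Ig (7 of 23) lists rest on too few summits to place. The order was reversed for simple repeats, in which a window matches itself at a distance of 1 to 6 bases in more than 50% of its bases. These made up 5.78% (5.41 to 6.17) of members, 9.96% of Input-only summits inside genes, 46.8% of Input summits near another library, 49.5% in the PU.1 set and 56.4% in the BATF set, against 2.49% of all tiles. Members were mainly L1, and simple repeats were the larger group in the PU.1 and BATF sets. Repeat-masked windows were frequent in all of them, from 97.4% of members to 81.6% of BATF summits, against 34.3% of tiles.

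**Figure D1:**
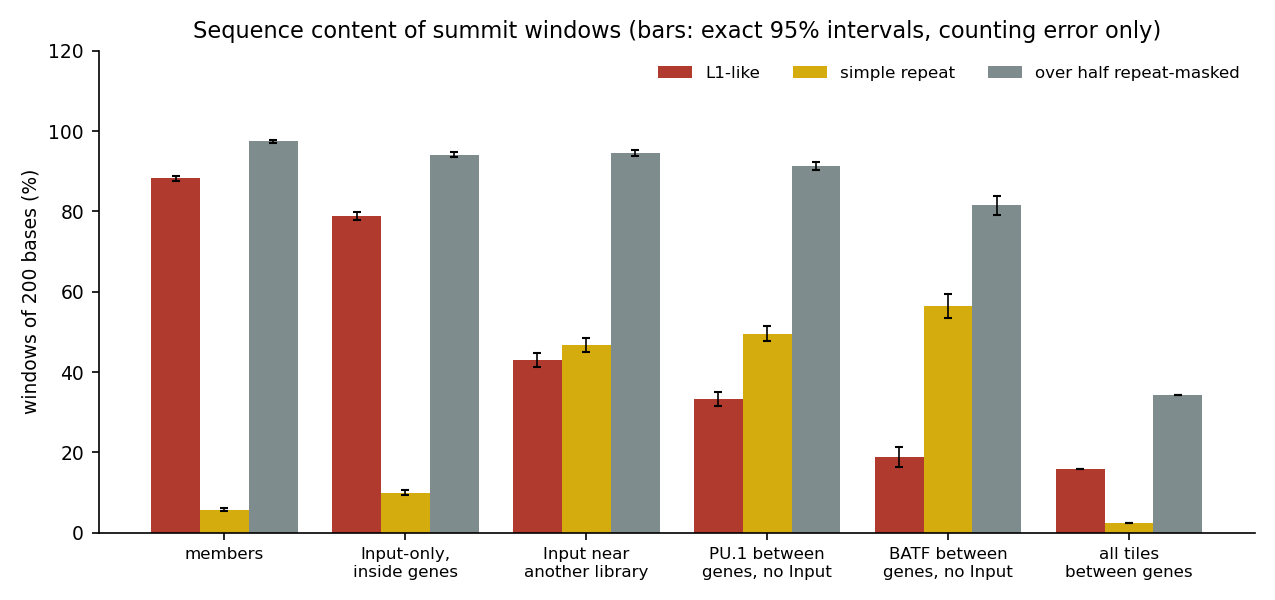
Share of 200-base windows (vertical axis, %) that were L1-like, simple repeats or more than 50% repeat-masked, for the members, the other Input summits, the PU.1 and BATF summits between genes with no Input summit within 500 bp, and all tiles between genes. Bars are shares and whiskers exact 95% intervals; members stand at 88.2% L1-like and 5.78% simple repeats, BATF summits at 18.8% and 56.4%.

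Along the element, members formed a series of sharp maxima. ORF1, which holds 12.4% of the L1-like tiles, held 4639 members, 36.5% of the L1-like ones (interval 35.6 to 37.3), or 34.8 per 1000 tiles. Within it, positions -1000 to -601 alone held 3049 members (24.0%, 23.2 to 24.7) on 4.38% of the tiles, 65 per 1000. ORF2 held 7236 members on 61.9% of the tiles, 10.9 per 1000. In bins of 50 bases, further maxima stood at positions -50 to -1, just before the start of ORF2 (60.5 per 1000), at 1600 to 1649 (40.05), at 1100 to 1149 (28.8) and at 3800 to 3849, the end of ORF2 (21.5). Minima between them fell to 7.43 at -250 to -201, 5.33 at 300 to 349 and 6.38 at 1400 to 1449. Neighbouring maxima and minima thus differed by several fold over short distances, while the number of L1-like tiles per bin rose slowly, from 5152 at -900 to -851 to 7536 at 1950 to 1999.

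Both ends of the element held few members. From position 4000 on, downstream of ORF2, 15 members fell on 194488 tiles, 0.0771 per 1000, although this end held 18.2% of the L1-like tiles. Upstream of ORF1, in the promoter part, 25 members fell on 31629 tiles, 0.790 per 1000. The tiles of these ends were rich in G and C, with means of 46.8% and 52.6%, against 36.8% at positions -1000 to -601. The 25 members upstream of ORF1 were richer still, with a mean of 59.5%, and 7 of them lay at -1800 to -1601 on 1371 tiles, 5.11 per 1000. The promoter part of mouse L1 differs between subfamilies.

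**Figure D2:**
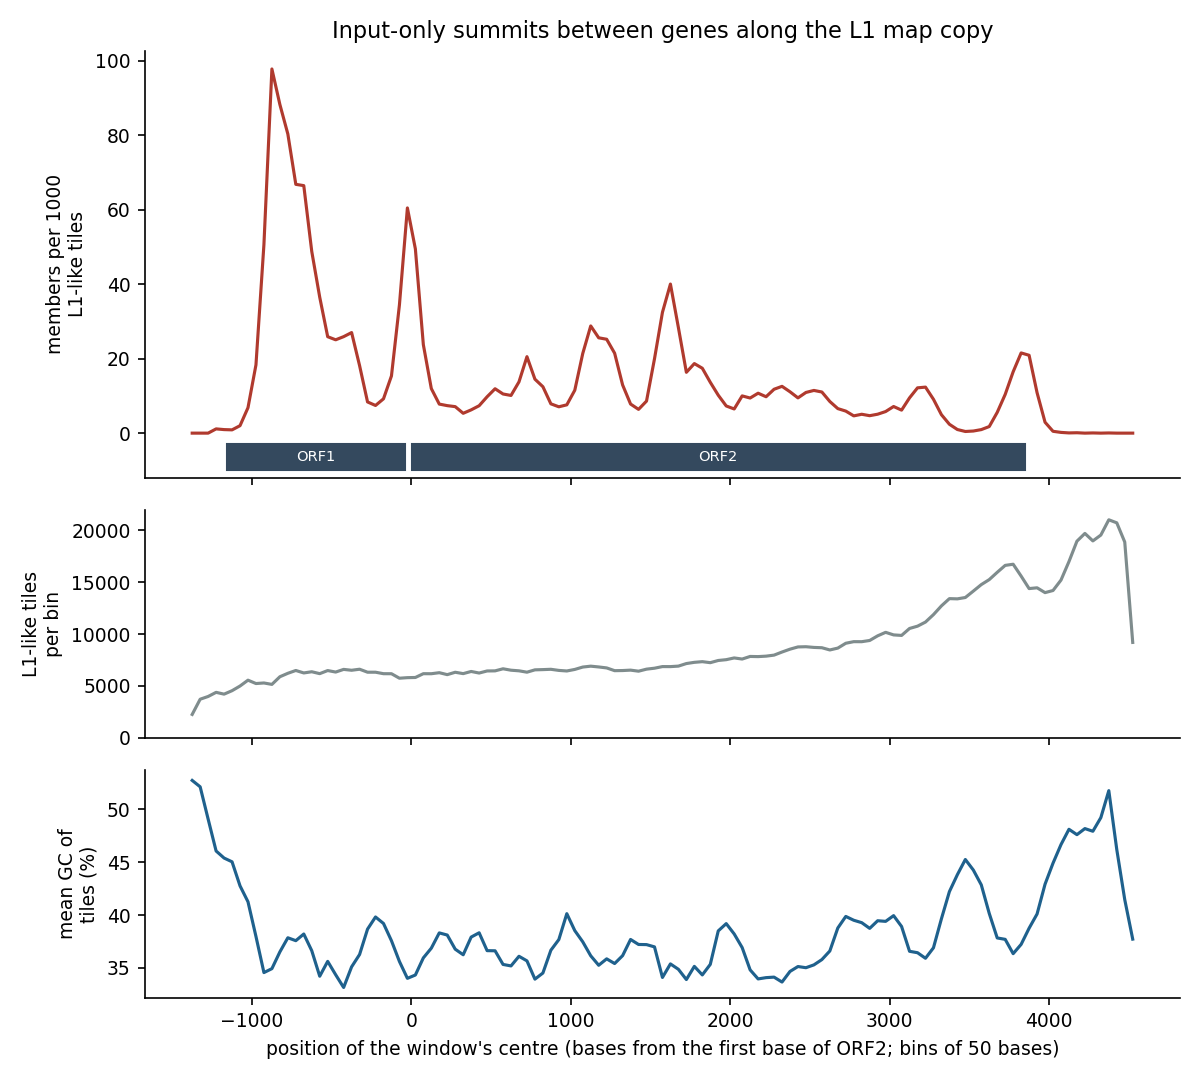
Members per 1000 L1-like tiles (top), L1-like tiles per bin (middle) and mean GC content of those tiles in % (bottom), in bins of 50 bases along the L1 map copy, with position 1 at the first base of ORF2. The line of members peaks at 97.8 at positions -900 to -851 and stays near 0 beyond position 4000, where tiles per bin are at first most numerous and then few.

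The stretch of ORF1 that was rich in members held a similar share of the other Input summits. It held a smaller share of the PU.1 and BATF summits, taken between genes and with no Input summit within 500 bp. This filter takes out antibody summits close to Input summits, which were frequent in that stretch, and its part in the difference was not tested. The members in turn were chosen to have no PU.1 or BATF summit within 500 bp. The Input-only summits inside genes had 22.2% (interval 21.1 to 23.3) of their 5711 L1-like windows at -1000 to -601 and 0.193% from position 4000 on, with 33.4% (32.2 to 34.6) in ORF1 as a whole against 36.5% of members. Of the 1365 L1-like Input summits near another library, 24.4% (22.1 to 26.8) lay at -1000 to -601 and 1.68% (1.07 to 2.52) from position 4000 on. Farther along, ORF2 held 45.3% (42.6 to 47.96) of the latter against 56.9% (55.99 to 57.7) of L1-like members, and their median identity to the map copy was 96% against 87.6%. Of the 960 L1-like PU.1 summits, 12.2% (10.2 to 14.4) lay at -1000 to -601 and 10.9% (9.03 to 13.1) from position 4000 on. Of the 196 L1-like BATF summits, 5.61% (2.83 to 9.82) lay at -1000 to -601 and 32.1% (25.7 to 39.2) from position 4000 on, against 0.118% (0.0660 to 0.194) of members. Of all L1-like tiles between genes, 4.38% lay at -1000 to -601 and 18.2% from position 4000 on. The BATF interval at -1000 to -601 included the share of tiles, and that from position 4000 on lay above it. The PU.1 share lay above that of tiles at -1000 to -601 and below it from position 4000 on. No test was possible without replicates.

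Members were poor in G and C. The mean GC content of the windows was 35.9% ± 3.91 (SD over 14428 members), against 40.4% in windows 5000 bp to either side and 40.8% ± 7.61 over all tiles between genes. L1-like members had 36.1% ± 3.09, against 39.8% ± 5.87 for L1-like tiles, so the spread among members was narrower than among tiles. Within L1, members per 1000 tiles were highest at a GC content of 32 to 36% (22.9) and fell to 0.558 at 44 to 48%. Outside L1, the same measure was highest below 28% (0.993) and fell to 0.0747 at 44 to 48%. At equal GC content the places on the element still differed: at 32 to 36%, positions -1000 to -601 held 86.9 members per 1000 tiles, all L1-like tiles 22.9, tiles outside L1 0.576, and the 3554 tiles from position 4000 on held none. The part that GC content, copy number and the assignment of reads had in these differences was not tested.

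**Figure D3:**
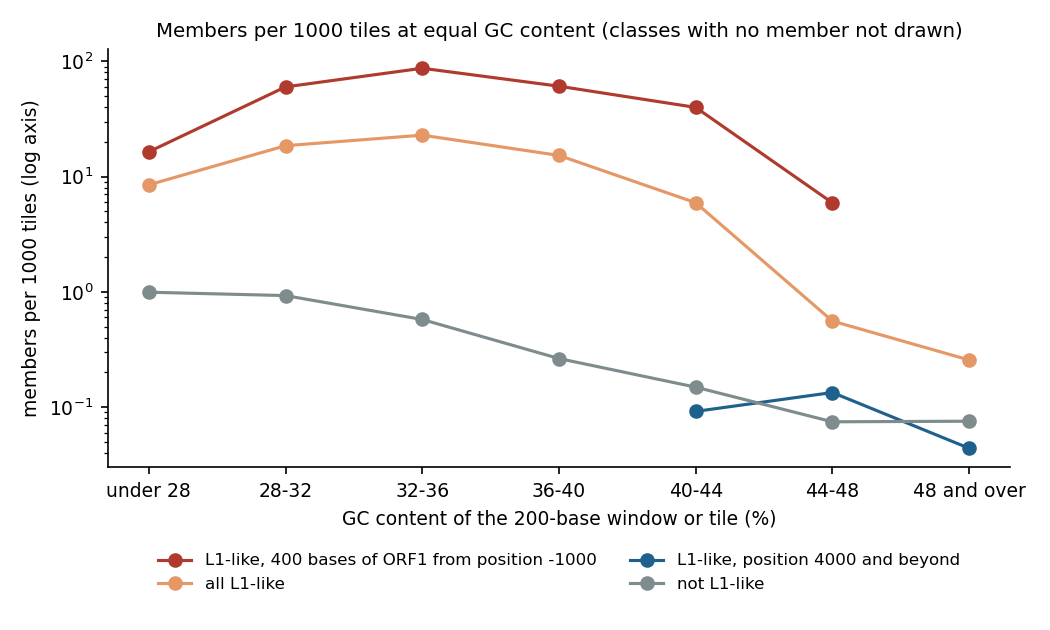
Members per 1000 tiles (log axis) by the GC content of the window or tile (horizontal axis, %), for L1-like sequence at positions -1000 to -601, all L1-like sequence, L1-like sequence from position 4000 on, and sequence that is not L1-like. At each GC class from 28 to 44% the ORF1 stretch lies above all L1-like sequence, and that above sequence outside L1.

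Copies close to the map copy and distant from it both held members. The median identity of L1-like members to the map copy was 87.6% (quartiles 80.3 and 95.4), against 89.5% for L1-like tiles. Members per 1000 L1-like tiles were 16.7 at an identity of 75 to 80%, 8.49 at 90 to 95% and 13.7 at 98% or more, with no steady trend. The score, by contrast, was higher in copies close to the map copy: its median was 3.45 below 75% identity and 5.74 (quartiles 4.17 and 8.18) at 98% or more. The most frequent stretch of 75 bases occurred once in the median member below 75% identity and 4598 times at 98% or more, where 45.6% of members held a stretch found only once. Over all members, 82.9% (interval 82.3 to 83.5) held a stretch of 75 bases that is unique in the genome, fewer than the 90.8% and 91.1% of windows 5000 bp to the left and right. The 2465 members without one had a higher median score (4.84) than the 11963 with one (3.82). Of the 2272 frames with the catalytic motif that lie between genes, 773 (34.0%, interval 32.1 to 36.01) had a member between the start of their ORF1 and the end of their ORF2, and 135 had more than 1. The 918 members in these places had a median score of 5.92, against 3.82 for the other L1-like members.

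**Figure D4:**
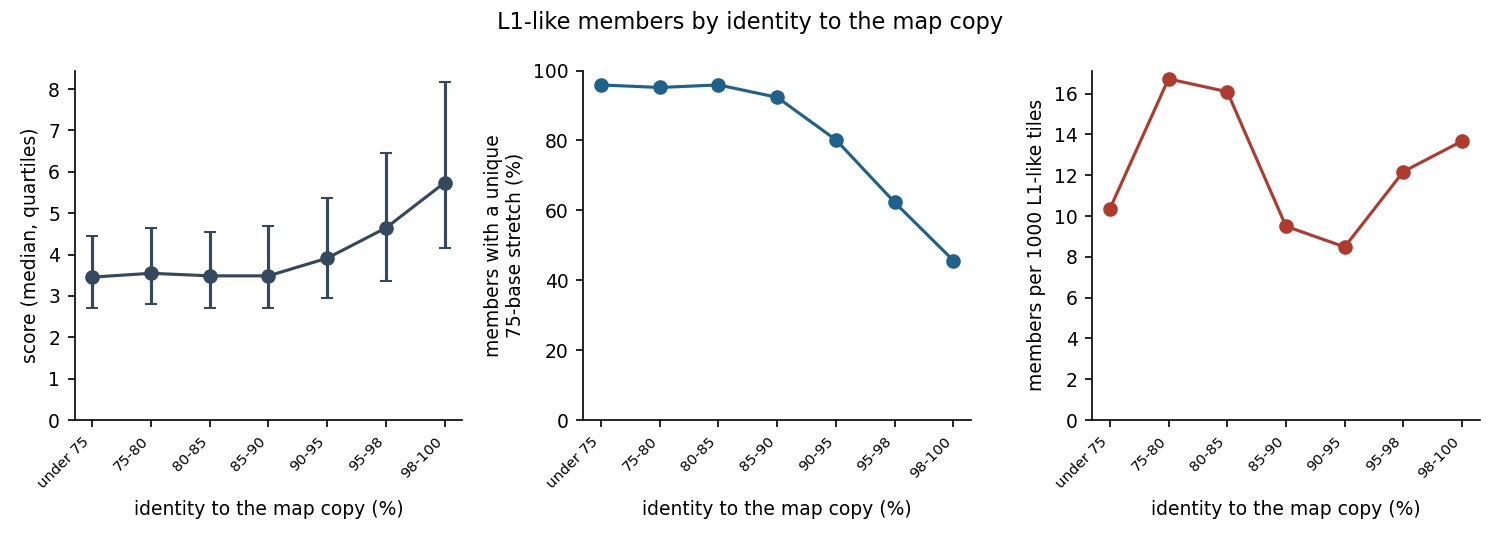
L1-like members by identity to the map copy (horizontal axes, %): median score with quartiles (left), share of members with a 75-base stretch that occurs once in the genome (middle), and members per 1000 L1-like tiles (right). The score rises to 5.74 and the unique share falls to 45.6% in the class of 98 to 100%, while members per 1000 tiles vary between 8.49 and 16.7.

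The remaining 1702 members were of several kinds. Simple repeats outside L1 made up 829 members, arrays with a unit of 21 bases 47, other repeat-masked windows 537 and windows with at most 50% masked bases 289. Among all 834 members with a simple repeat, the unit AGAT (counted with its rotations and its complement) was by far the most common with 384 members (46.0%), followed by AC with 123, AAAG with 73 and ACAT with 71. AGAT also led in the Input-only summits inside genes, with 281 of 722 (38.9%) against 152 for AC. In the Input summits near another library AC led with 474 of 1487 (31.9%), and AGAT had 162 (10.9%). The highest-scored AGAT member, at a score of 24.1, lay 104.9 kb from the nearest gene. Its central 120 bases are shown because this repeat is the leading simple repeat of the members. Capitals mark runs that repeat every 4 bases, and the plus strand shows the complement of AGAT.
AGAT member (chr8:89484503-89484622, plus strand): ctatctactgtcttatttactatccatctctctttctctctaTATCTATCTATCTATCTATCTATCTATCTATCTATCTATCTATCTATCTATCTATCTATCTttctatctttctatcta
The AGAT members had a median score of 4.84, above the median of 3.96 of the L1-like members, and the AC members one of 4.07.

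The 4 highest scores belonged to tandem arrays, and L1-like members were less frequent among the 100 highest than among all members. The scores of the members ranged from 1.302 to 68.9 with a median of 4.01. The members with a 21-base array had a median score of 10.2 (quartiles 7.55 and 19.1), and they took 15 of the 100 highest scores with 47 of 14428 members. L1-like members took 73 of those 100, against 88.2% of all members, their highest being 35.1. An array was counted where more than 50% of the bases of a window equal the base 21 positions before and the window is neither L1-like nor a simple repeat, which held for 0.326% of members (interval 0.239 to 0.433) and 0.0161% of tiles. Their mean GC content was 49.1%, far above that of the members as a whole. Of the 47, 36 lay in the first 1 Mb of assembled sequence of 4 chromosomes (3, 4, 16 and 17), the end that faces the centromere in the one-armed mouse chromosomes, and 7 lay together on chromosome 7. The highest-scored windows of chromosomes 17 and 7 are shown, with the runs of at least 8 bases that repeat 21 bases away in capitals.
Array on chromosome 17 (chr17:3026990-3027189, plus strand): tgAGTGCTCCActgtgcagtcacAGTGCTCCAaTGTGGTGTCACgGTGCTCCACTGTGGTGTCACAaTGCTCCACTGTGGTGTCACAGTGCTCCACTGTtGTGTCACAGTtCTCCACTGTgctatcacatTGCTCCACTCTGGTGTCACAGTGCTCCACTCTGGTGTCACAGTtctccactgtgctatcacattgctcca
Array on chromosome 7 (chr7:64078908-64079107, plus strand): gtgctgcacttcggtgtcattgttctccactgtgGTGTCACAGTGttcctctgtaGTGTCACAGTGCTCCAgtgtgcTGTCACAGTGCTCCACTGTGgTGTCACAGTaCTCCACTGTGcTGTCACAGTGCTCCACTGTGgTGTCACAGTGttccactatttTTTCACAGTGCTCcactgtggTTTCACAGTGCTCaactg
These had scores of 52.7 and 28.8, and every stretch of 75 bases in them occurred once in the reference. Members that were not L1-like numbered 1.61 per 1000 such tiles in the first assembled 1 Mb (66 members on 12 of the 20 chromosomes) and 0.291 elsewhere, or 0.731 and 0.289 without the 21-base arrays, while L1-like members numbered 13.7 and 11.9.

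The 2 highest-scored members, on chromosomes 11 and 6, carried a related array of another kind. They had scores of 68.9 and 65.6, a GC content of 36% and 33.5%, and a unique sequence. Capitals mark stretches of at least 12 bases that occur in both windows, the second read on the minus strand.
Highest member (chr11:114973430-114973629, plus strand): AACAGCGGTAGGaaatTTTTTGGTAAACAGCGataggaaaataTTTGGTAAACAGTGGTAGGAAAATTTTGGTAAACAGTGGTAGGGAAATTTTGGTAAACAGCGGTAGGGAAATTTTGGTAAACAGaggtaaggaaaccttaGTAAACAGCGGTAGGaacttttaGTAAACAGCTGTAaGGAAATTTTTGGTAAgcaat
Second member (chr6:21200577-21200776, minus strand): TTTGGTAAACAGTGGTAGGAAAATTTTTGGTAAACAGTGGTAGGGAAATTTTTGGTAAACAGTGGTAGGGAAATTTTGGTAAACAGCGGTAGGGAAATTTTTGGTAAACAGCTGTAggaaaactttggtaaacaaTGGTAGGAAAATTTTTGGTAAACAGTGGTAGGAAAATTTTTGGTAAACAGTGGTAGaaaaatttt
The longest run of bases shared by both was 52 bases. The first lay between Cd300c (4.37 kb away) and Cd300ld (8.74 kb away), receptors of the CD300 family of immune cells, and the second 14.8 kb from Kcnd2, which encodes a voltage-gated potassium channel. The next 2 were the chromosome 17 array above and its neighbour (45.1), 14.9 and 29.03 kb from Gm49792. Like the 2 highest members (21.5% and 9.5% of bases repeat-masked), the fifth, with a score of 43.4, was mostly unmasked (1.5%). Its window, between Rimbp3 (8.38 kb) and Hic2 (11.2 kb), had a GC content of 63.5%, above that of every higher-scored member. Its central bases are shown with CG dinucleotides in capitals.
GC-rich member (chr16:17222303-17222422, plus strand): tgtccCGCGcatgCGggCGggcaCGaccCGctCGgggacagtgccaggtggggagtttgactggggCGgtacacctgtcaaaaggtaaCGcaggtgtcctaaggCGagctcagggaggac
The other 5 of the 10 highest lay 23.8 kb from Pisd-ps1 (35.7), between Gm48608 and Gm4927 (35.1, L1-like), 4.98 kb from P2ry10 on chromosome X (33.6, L1-like), 11.2 kb from Gm49792 (33.3, 21-base array) and 9.55 kb from Fam107a (29.4). Of the 10, 2 were L1-like, against 88.2% of all members. The first of those 5 lay 0.654 kb and the fourth 0.847 kb from a PU.1 summit, close to the distance limit of the rule.

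Members lay on every chromosome searched, and chromosomes with more L1 between genes held more of them per Mb. There were 10.7 members per Mb between genes in all, between 7.64 (chromosome 11) and 11.8 (chromosome 17) on the autosomes and 14.4 on chromosome X, which lay above every autosome. Chromosome X also had the highest L1-like share of tiles, 26.8%, against 10.1 to 18.4% on the autosomes. Per 1000 L1-like tiles the order turned: chromosome X had 9.99 L1-like members, fewer than each of the 19 autosomes (10.3 to 13.7). Across the 20 chromosomes, Spearman's rho between members per Mb and the L1-like share of tiles was 0.75, and 0.71 without X. These points share 1 library and differ in base composition.

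**Figure D5:**
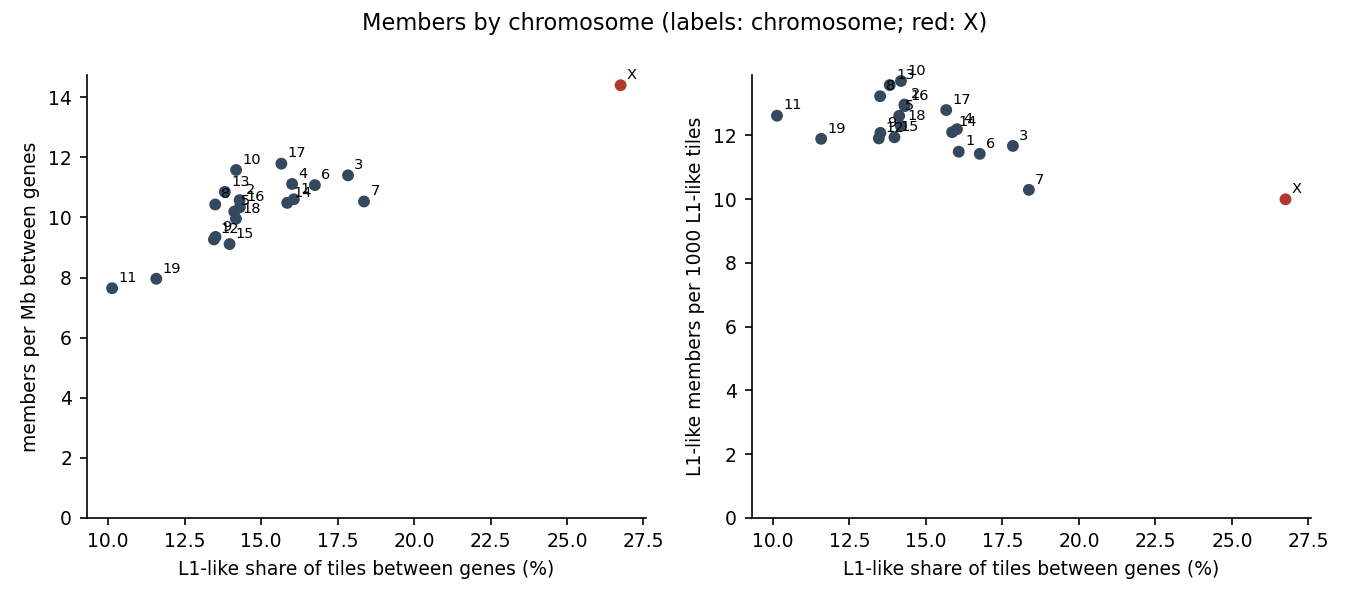
Each point is a chromosome (X in red), placed by the L1-like share of its tiles between genes (horizontal axes, %), against members per Mb between genes (left) and L1-like members per 1000 L1-like tiles (right). X is highest on the left at 14.4 and lowest on the right at 9.99.

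Some members came in groups. Another member lay within 10000 bp of 3987 members (27.6%, interval 26.9 to 28.4) and within 1000 bp of 1436 (9.95%), the smallest distance being 211 bp. The share within 10000 bp was 16.9% among members with a score above the median of the Input list, a smaller set, and 19.6% with 1 member per run under 1000 bp apart. Of the 2176 pairs of neighbours within 10000 bp, 1863 were both L1-like, and in 1010 of these (54.2%, 51.9 to 56.5) both lay on the same strand at a spacing equal, within 100 bp, to their spacing on the map copy. The median spacing of these 1010 pairs was 0.785 kb. The richest stretches of 1 Mb were chr8:20000001-21000000 with 46 members, and chr3:3000001-4000000 and chr4:61000001-62000000 with 28 each. The median was 8 over the 1257 stretches with at least 2500 tiles between genes, which leave out the one on chromosome 8. The stretch on chromosome 8 lay among Gm21119, Gm20778, Gm21182 and other predicted genes, 20 of its 46 members had a unique stretch of 75 bases, and it held 0.490 Mb of sequence between genes. That on chromosome 4 is the cluster of major urinary protein genes, carriers of pheromones, with 20 Mup genes and pseudogenes. That on chromosome 3 is the start of the assembled chromosome, 19 of its members were L1-like, and Hnf4g was the nearest gene of 4.

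Members lay nearer to genes than sequence of their own class, and slightly farther than all tiles together. The median distance to the nearest gene was 21.8 kb (interval 21.3 to 22.5), against 20.2 kb for all tiles, with a range of 20 bp to 620 kb. Genes here include pseudogenes and non-coding genes; outside protein-coding genes only, the median was 89.8 kb. It was 23.0 kb for L1-like members against 26.5 kb for L1-like tiles, and 14.9 kb against 19.1 kb outside L1. Within 1000 bp of a gene there were 295 members, 0.895 per 1000 tiles, against 2.04 to 2.28 per 1000 in each class farther away. Only 4.68% of the tiles this near to a gene were L1-like, and per 1000 L1-like tiles the number of L1-like members was 13.9 there and 9.66 beyond 100 kb. Processed pseudogenes were the nearest gene of 34.4% of members (30.8% of tiles) and protein-coding genes that of 27.02% (29.5%).

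Olfactory, vomeronasal, immunoglobulin, Mup, cytochrome P450 (Cyp), killer cell lectin (Klr) and Speer genes lay nearest to members more often than to tiles, in sequence that holds more L1 than the rest. Olfactory receptor genes (Olfr) were nearest to 340 members, 2.36% (interval 2.12 to 2.62) against 1.35% of tiles, and vomeronasal receptor genes (Vmn) to 210, 1.46% against 0.835%. Of the tiles near these families 32.9% and 38.8% were L1-like, and per 1000 L1-like tiles they had 10.4 and 8.38 members, against 11.96 near genes of no listed family. Immunoglobulin segments were nearest to 111 members (0.769% against 0.369%), and T cell receptor segments to 17 (0.118% against 0.127%). Per 1000 L1-like tiles these had 13.8 and 10.2 L1-like members. Cyp genes were nearest to 54 members (0.374%, interval 0.281 to 0.488, against 0.221%) and Klr genes to 13 (0.0901%, 0.0480 to 0.154, against 0.0351%). They had 12.4 and 22.6 L1-like members per 1000 L1-like tiles, the Klr value resting on 10 members. Mup genes were nearest to 51 members (0.353% against 0.108%) and Speer genes to 13 (0.0901% against 0.0319%), with 20.5 and 25.2 L1-like members per 1000 L1-like tiles, the Speer value resting on 11 members. Serpin genes had 8 members (0.0554%, interval 0.0239 to 0.109), an interval that includes the 0.0939% of tiles. Krtap genes had 3 (0.0208%, 0.00429 to 0.0608), an interval that ends just below the 0.0615% of tiles and rests on 3 members. Zinc finger (Zfp) genes had 61 members, 0.423% against 0.446% of tiles. Defensin genes (Defa, Defb) had 18 (0.125% against 0.107%) and H2 genes 4 (0.0277% against 0.0356%).

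Members lay near some genes of T helper cells and far from others. The nearest member lay within 100 kb of 11 of the 23 genes looked up and within 10 kb of 5, with a median of 132 kb. Over all 21755 protein-coding genes of these chromosomes, a member lay within 100 kb of 45.4% and within 10 kb of 8.58%, with a median of 120 kb, so the share within 100 kb (47.8%) was near the background and that within 10 kb (21.7%) rests on 5 genes. Il9, the cytokine that defines Th9 cells, had its nearest member 9.05 kb away, an L1-like window of 77.8% identity with a score of 2.43. Il21, another cytokine of these cells, had one at 53.6 kb (score 3.67), and Ifng, the Th1 cytokine, one at 2.90 kb (2.64) with 7 members within 100 kb. Il17a (6.66 kb), Irf4 (6.04 kb) and Etv6 (9.05 kb) made up the other genes within 10 kb, with scores of 4.27, 2.49 and 2.72. The Th2 cytokine genes Il4, Il5 and Il13 shared their nearest member, a simple repeat at 159, 277 and 188 kb. No member lay within 100 kb of Irf8, where the nearest was 1399 kb away, nor of Spi1, which encodes PU.1 (656 kb), while Batf had one at 21.6 kb. The nearest member was L1-like for 13 of the 23 genes. Of all members 88.2% were L1-like, but the share among the nearest members of all genes was not measured. The number of members within 100 kb was not measured over all genes either.

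The AP-1 and PU.1 strings were rarer in members than in tiles between genes, while for the motif of IRF8 the direction depended on the kind of sequence. The AP-1 heptamer, written as TGACTCA or TGAGTCA and searched on both strands, occurred in 61 members, 0.423% (interval 0.324 to 0.543), against 2.99% of all tiles between genes and 2.81% and 2.80% of windows 5000 bp to the left and right. It was 0.235% among members with a score above the median of the Input list, and 1.17% in windows of 400 bp, which hold more bases. Among L1-like sequence the shares were 0.354% (0.258 to 0.473) of members and 0.504% of tiles. The PU.1 string GAGGAAGT, on both strands, occurred in 115 members, 0.797% (0.658 to 0.956), against 1.20% of tiles, and within L1 in 0.872% (0.718 to 1.05) of members, an interval that includes the 1.04% of tiles. The degenerate motif given for IRF8 occurred in 637 members, 4.42% (4.09 to 4.76), against 5.78% of tiles, and 395 of these 637 were among the 1702 members outside L1. Within L1 it occurred in 1.90% (1.67 to 2.15) of members, against 1.36% of tiles. In simple repeats outside L1 it was rarer in members, with 34.5% (31.3 to 37.8) against 56.8% of tiles, and in the remaining windows more frequent, with 12.5% (10.4 to 14.9) against 5.10%. The Input-only summits inside genes had 1.86%, 38.2% and 13.7% in these 3 kinds, and the Input summits near another library 0.147%, 55.9% and 6.48%. A match says only that these letters stand in the window.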

How the data were processed

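Chromatin of Th9 cells was sheared and sequenced, for the Input library without immunoprecipitation. The processing notes name Bowtie2 and the mm10 build, and the summits carry the names that MACS2 gives, while the methods name FindPeaks as the peak caller and mention MACS for converting formats. The deposited lists give 1 position of 1 bp and a score per summit. What the authors' score measures is not given in the sources used here, and it was compared only within the Input list. The labels and the study's text also differ on culture time (a few hours or a day), cell number and sequencer. From the reference genome (GRCm38, soft-masked) windows of 200 bases were taken around each summit and compared with the L1 map copy (blastn 2.17.0, E-value 1e-05), and stretches of 75 bases were counted over the primary assembly on both strands. Code was tested on simulated data. Intervals came from scipy 1.17.1 (exact binomial, 95%). Genes named are the neighbours of the 10 highest-scored members and of the 3 richest stretches of 1 Mb, listed gene families, and 23 T helper genes looked up. The members, lists and measures were chosen with earlier results of these data known, and the L1 alignment and the 21-base arrays were added after seeing the windows. Alternatives tried were other distances, genes, score limits, windows and stretch lengths. Input summits on other chromosomes and 3 windows with undetermined bases were left out of the shares.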

Additional observations from a re-analysis of the deposited data

How the results depend on the processing

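Of 44 alternative values for 9 results, 25 stayed within the 95% interval of the reported value (a count: within 1.5 times) and 19 moved. With only the members whose score was above the median of the Input list, the members numbered 6378, the masked share was 97.8%, the simple-repeat share 7.34%, the mean GC content 36.2%, the unique share 75.8%, the clustered share 16.9%, the median gene distance 22.8 kb, the AP-1 share 0.235% and the L1-like share 87.5%. With windows of 400 bp, the simple-repeat share was 4.79%, the mean GC content 36.6%, the unique share 90.7% and the AP-1 share 1.17%. Stretches of 50 bases gave a unique share of 76.6%. With 1 member per run under 1000 bp apart the clustered share was 19.6%, and with a cluster distance of 1000 bp it was 9.95%. Outside protein-coding genes only, the median gene distance was 89.8 kb and the L1-like share 87.6%, which was 85.3% with at least 150 aligned bases. The alternatives on the L1-like share were chosen after seeing the data. Wider windows hold more bases and can only gain AP-1 motifs and unique stretches, and a shorter cluster distance can only lower the clustered share; the cause of the other changes was not tested. No paired analysis was possible because each group holds 1 library. The lists hold no read counts, so the depth behind a summit is unknown, and how reads from repeats with many copies were assigned is not given in the sources used here.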
